A study of Mus musculus with 2 samples.

Results

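In this RNA-seq data set 10 genes of de novo fatty acid synthesis and desaturation were followed in C3H10 cells with and without knockdown of MALAT1, a nuclear long noncoding RNA. They were chosen by symbol, as Acly, Me1, Acaca, Acacb, Fasn, Elovl6, Elovl5, Scd1, Scd2 and Mlxipl, and all 10 were found among the 46095 genes of the count table. C3H10 (C3H/10T1/2) is a mouse mesenchymal cell line that forms adipocytes after hormonal induction, and the labels give its strain as C57BL/6 and its type as a fibroblast precursor with adipogenic ability. The control group, NC, received a negative control antisense oligonucleotide (ASO), the MALAT1-knockdown group an ASO against MALAT1, and each gave 1 library. An ASO is a short strand that directs cleavage of the RNA it pairs with. Both groups received 100 nM ASO at 70% confluence and, after 8 h, full medium with 10% fetal bovine serum. At confluence both were induced with a mix of insulin at 10 ng/mL, troglitazone at 0.5 mg/L, dexamethasone at 5 mM and isobutyl-methylxanthine at 0.5 mM, and after 2 days kept in 10 ng/mL insulin. Troglitazone is an activating ligand of PPAR-γ, and both groups received the same dose. Cells were studied at differentiation day 6. Which of the study's ASOs against MALAT1 was sequenced is not given in the sources used here.

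Adipocytes make fatty acids from citrate that leaves the mitochondrion. ATP citrate lyase splits it to acetyl-CoA, acetyl-CoA carboxylase turns acetyl-CoA into malonyl-CoA, and fatty acid synthase builds palmitate from both with the reducing power of NADPH. Elongases then lengthen the chain and stearoyl-CoA desaturases put in a double bond, which gives the oleate and palmitoleate of stored triglyceride. Many of the genes are classical targets of SREBP-1c, LXRα and ChREBP, and the pathway is switched on as preadipocytes mature.

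The RNA-seq libraries were made from rRNA-depleted total RNA and held 58147539 counts in the control and 61653549 counts in the knockdown. Library sizes were multiplied by TMM factors from edgeR, 0.992 for the control and 1.01 for the knockdown, and levels are given in CPM, a count rate that allows for these scaled sizes. The log2 ratio of a gene is its log2 fold change, the scaled knockdown level over the scaled control level, with a prior count of 0.5. Genes were tested from a sum of 10 counts over the pair of libraries upward, and a gene passed 2-fold where its log2 ratio was 1 or more above or below 0. With 1 library per group no difference has a replicate check and the spread between cultures cannot be estimated, so tests were run only with an assumed spread and are given as counts of genes. The 95% Clopper-Pearson intervals cover counting error only and compare these libraries, not the conditions. Malat1 itself had 170402 counts in NC cells and 45396 in knockdown cells, 24.7% of the control level, which is the direction of its label.

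The 10 genes took 0.707% of the control library (410914 counts) and 0.40% of the knockdown library (246368 counts, 95% interval 0.398% to 0.401%). Scd1, Scd2 and Fasn together gave 86.3% of these counts in the control and 82.5% in the knockdown. The summed level went from 7121 CPM to 3966 CPM, 55.7% of the control. Of the 10 genes, 4 passed 2-fold downward (Scd1, Acacb, Fasn and Mlxipl) and 0 passed it upward. Among all 17356 genes tested, 6.02% passed 2-fold downward and 3.91% upward. Fold changes past this line were rarer among well-counted genes. Of the 8251 genes with a mean of at least 1000 counts, to which every member but Mlxipl belongs, 0.739% passed downward and 0.0121% upward. Of the 9 members among them, 3 passed downward and 0 upward. At a 1.5-fold line 6 of the 10 were lower, with Acly and Me1 added, against 11.9% of all genes tested. At that line 5 of the 9 well-counted members were lower, against 2.84% of the well-counted genes. The median log2 ratio of the 10 genes was -0.67, against 0.00 over all genes tested and 0.01 over the well-counted genes. It was -0.61 without Mlxipl, which had only 12 counts. In a bulk sample fewer adipocytes and less RNA per adipocyte cannot be told apart. The summed level of 11 adipocyte markers went from 6857 to 2872 CPM between the same libraries, 41.9% of the control, and its part in the values of the 10 genes was not tested.

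**Figure D1:**
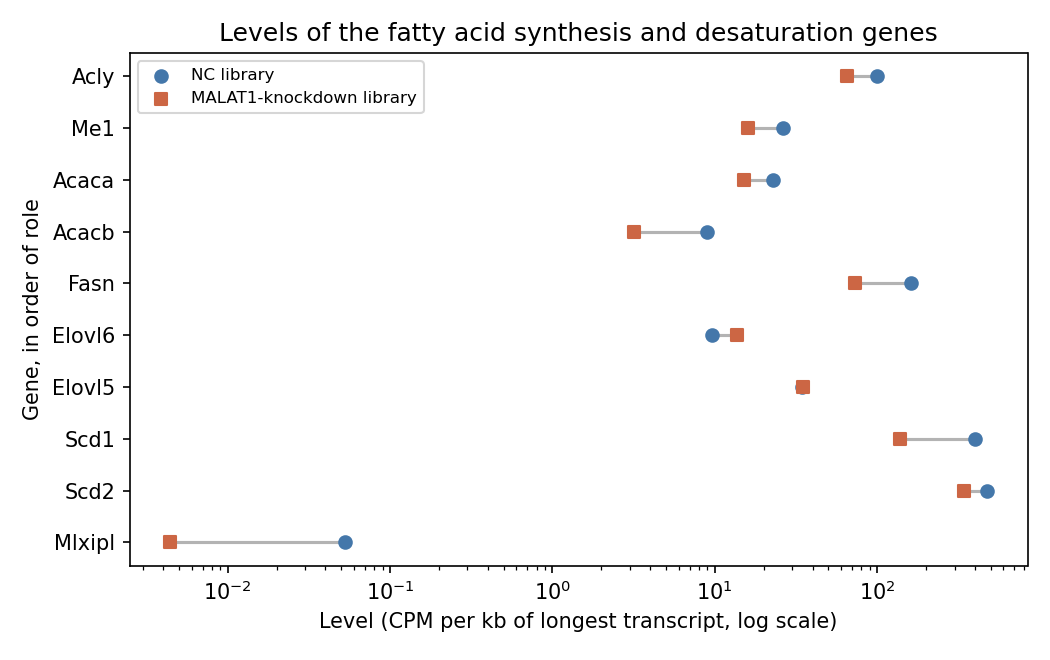
Level of each gene in the control (circles) and MALAT1-knockdown (squares) library, in CPM per kilobase of the longest transcript on a log axis, 1 library per point. Scd2, Scd1, Fasn and Acly lay highest in both libraries, Elovl5 nearly coincided, Elovl6 was higher in the knockdown, and Mlxipl lay far below the others.

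Levels are compared between genes per kilobase of the longest GENCODE transcript. In NC cells Scd2 was highest with 473 CPM per kilobase, followed by Scd1 with 401, Fasn with 161 and Acly with 100. Elovl5 followed with 34.6, Me1 with 26.5, Acaca with 22.7, Elovl6 with 9.66 and Acacb with 9.01, and Mlxipl was last with 0.0526. The order was the same in knockdown cells, from 341 CPM per kilobase for Scd2 to 3.16 for Acacb and 0.00444 for Mlxipl. Me1 and Acaca, neighbours in this order, had overlapping counting intervals in the knockdown, from 15.4 to 16.5 for Me1 and from 14.9 to 15.5 for Acaca. The spread between cultures is unknown, so the order of other close neighbours, such as Elovl6 and Acacb in NC cells, is not shown beyond counting error. With the median length of each gene's transcripts in place of the longest, Scd1 came first, Fasn next and Scd2 after them in both libraries.

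Positions are those of GENCODE M21 on GRCm38, the build named in the submitters' processing notes, and all 10 genes are annotated there as protein-coding. Chromosome 19 holds Scd1 from 44394455 to 44407879 (minus strand) and Scd2 from 44293674 to 44306864 (plus strand). Chromosome 11 holds Acly from 100476353 to 100528000 (minus), Acaca from 84129672 to 84401651 (plus) and Fasn from 120805846 to 120824547 (minus). Chromosome 5 holds Acacb from 114146535 to 114250761 and Mlxipl from 135089890 to 135138382, both on the plus strand. Elovl5 lies on chromosome 9 from 77917364 to 77984519 (plus), Me1 on chromosome 9 from 86581371 to 86695953 (minus) and Elovl6 on chromosome 3 from 129532355 to 129638495 (plus).

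Promoter windows of 200 bases, from 250 to 51 bases before the annotated start, are shown for 2 genes that fell past 2-fold, Fasn and Acacb, and for Elovl6, which was higher in the knockdown. They are RefSeq sequences of GRCm38.p6, written 5′ to 3′ on the strand of the gene, with CCAAT boxes in capitals as CCAAT or, on the other strand, ATTGG. The Fasn window is chr11:120824598-120824797 (minus), that of Acacb chr5:114165268-114165467 (plus) and that of Elovl6 chr3:129532136-129532335 (plus). The Acacb window lies within the gene as GENCODE draws it, upstream of a later start.
Fasn: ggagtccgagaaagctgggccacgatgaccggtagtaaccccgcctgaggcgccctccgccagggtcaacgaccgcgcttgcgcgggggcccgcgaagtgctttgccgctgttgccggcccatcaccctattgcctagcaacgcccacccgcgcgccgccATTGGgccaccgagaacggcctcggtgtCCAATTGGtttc
Acacb: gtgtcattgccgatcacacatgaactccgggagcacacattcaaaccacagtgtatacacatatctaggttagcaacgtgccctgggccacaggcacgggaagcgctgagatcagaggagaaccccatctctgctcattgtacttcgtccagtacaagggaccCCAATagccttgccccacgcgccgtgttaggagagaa
Elovl6: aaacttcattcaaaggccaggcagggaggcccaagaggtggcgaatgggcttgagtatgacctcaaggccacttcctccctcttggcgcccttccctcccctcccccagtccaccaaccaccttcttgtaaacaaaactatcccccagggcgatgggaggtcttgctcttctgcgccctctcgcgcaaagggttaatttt

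Windows were found for 8 of the 10 genes, and those without were Scd1 and Scd2. Fasn held 3 CCAAT boxes, starting 90, 62 and 59 bases before the start, of which the latter 2 overlap in the run CCAATTGG. Acacb held 1, starting 87 bases before the start, and Elovl6 held 0. A CCAAT box, the site of NF-Y, was in 28.4% of all 32851 windows. Other motifs searched on both strands were the sterol element TCACNCCAC (0.810% of windows), the E-box CACGTG (4.34%), the GC box GGGCGG (24.6%), and repeats of AGGTCA with 1 base between the copies (DR1, the PPAR type, 0.0244%) or 4 bases between them (DR4, the LXR type, 0.0122%). None of these 5 was in the windows of Fasn, Acacb or Elovl6. Acly held 3 GC boxes and no CCAAT box, Elovl5 an E-box and a CCAAT box, and Acaca none of the motifs. A window of Me1 held a CCAAT box and another a GC box. A window of Mlxipl held an E-box, a CCAAT box and a GC box, and another a sterol element. The Acaca window, like that of Acacb, lies within its gene as GENCODE draws it. The same holds for the Me1 window with the CCAAT box and the Mlxipl window with the sterol element. Such a match is only a match of letters, and a window without one says nothing of the factor.

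Acly and Me1 supply the pathway's carbon and reducing power, and both were lower in the knockdown without passing 2-fold. Acly encodes ATP citrate lyase. It had 25554 counts in NC cells and 18030 in knockdown cells, or 443 and 290 CPM. Its log2 ratio was -0.61 (95% interval -0.64 to -0.58), 65.5% of the control level. Me1 encodes cytosolic malic enzyme, which makes NADPH. It had 5042 counts in the control and 3266 in the knockdown, with a log2 ratio of -0.73 (95% interval -0.80 to -0.67). The transcript of Me1 shares 32.8% of its stretches of 50 bases with other annotated transcripts, mainly the processed pseudogene Gm7049. That pseudogene had 167 and 100 counts, and summing it with Me1 gave -0.74.

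The 2 acetyl-CoA carboxylases differed in size of change. Acaca encodes the cytosolic enzyme whose malonyl-CoA feeds chain building, and Acacb the isoform at the mitochondrial surface whose malonyl-CoA restrains fatty acid import for oxidation. Acacb fell from 4569 to 1723 counts, or from 79.2 to 27.7 CPM, with a log2 ratio of -1.51 (95% interval -1.59 to -1.43). Only 11 of the 8251 well-counted genes had a lower value. Acaca had 12443 and 8971 counts, or 216 and 144 CPM, with a log2 ratio of -0.58 (95% interval -0.62 to -0.54). Acacb made up 26.9% of the pair's counts in NC cells (95% interval 26.2 to 27.5) and 16.1% in knockdown cells (15.4 to 16.8). The log2 ratio of Acacb was 0.93 below that of Acaca, a difference of -0.93 (95% interval -1.02 to -0.85) that does not depend on library scaling. Acaca shares more sequence with another annotated gene than any other member. Of its 50-base stretches 52.6% also occur in the processed pseudogene Gm5182, which was listed with 5191 counts in the control and 3625 in the knockdown. Reads of the 2 cannot be told apart there. Their summed counts, 17634 and 12596, gave a log2 ratio of -0.59 (95% interval -0.63 to -0.56), and Acacb lay 0.92 below the sum, a difference of -0.92. The Acacb transcript shared 0 such stretches with another gene.

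Fasn encodes fatty acid synthase, the enzyme that assembles palmitate. It fell from 93506 counts in NC cells to 45888 in knockdown cells, or from 1620 to 739 CPM. That is a log2 ratio of -1.13 (95% interval -1.15 to -1.12), 45.6% of the control level. Of the well-counted genes, 42 had a lower value. In counts Fasn came after Scd2 and Scd1 in the control, and between Scd2 and Scd1 in the knockdown. Its transcript shared 0 stretches of 50 bases with another gene.

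Elovl6 was higher in the knockdown without passing 2-fold, and Elovl5 lay within counting error of the control. Elovl6, which takes palmitate to stearate, had the highest log2 ratio of the 10 genes. It had 3318 counts in NC cells and 5081 in knockdown cells, or 57.5 and 81.8 CPM. Its log2 ratio was 0.51 (95% interval 0.44 to 0.57), 142% of the control level and short of 2-fold, and 166 of the well-counted genes had a higher value. Elovl5, which elongates polyunsaturated chains, had 5550 and 6026 counts, or 96.2 and 97.0 CPM, with a log2 ratio of 0.01 (95% interval -0.04 to 0.07). Elovl6 was 37.4% of the pair's counts in NC cells (95% interval 36.4 to 38.4) and 45.7% in knockdown cells (44.8 to 46.7). The log2 ratio of Elovl6 minus that of Elovl5 was 0.50 (95% interval 0.41 to 0.58). Elovl6 shared 4.59% of its 50-base stretches with other transcripts, and Elovl5 shared 0.

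Scd1 and Scd2, the stearoyl-CoA desaturases, had the highest levels per kilobase of the longest transcript, though not per kilobase of the median transcript, and differed in their log2 ratios. Both enzymes place the double bond in stearate and palmitate, and Scd1 is the isoform typical of mature fat and liver. Scd1 fell from 111931 to 41856 counts, or from 1940 to 674 CPM, with a log2 ratio of -1.53 (95% interval -1.54 to -1.51). Only 10 of the well-counted genes had a lower value. Scd2 had 148990 counts in NC cells and 115526 in knockdown cells, or 2582 and 1860 CPM. Its log2 ratio was -0.47 (95% interval -0.48 to -0.46), 72.0% of the control level. Scd1 was 42.9% of the counts of the pair in the control (95% interval 42.7 to 43.1) and 26.6% in the knockdown (26.4 to 26.8). The difference between the log2 ratios was -1.05 (95% interval -1.07 to -1.03). Counted together, Scd1 and Scd2 went from 4522 to 2533 CPM, 56.0% of the control. Scd1 shared 4.66% of its 50-base stretches with other transcripts, mostly Scd3, and Scd2 shared 4.01%, mostly Scd1, so most of each transcript can be told from the other. Scd3, a neighbouring isoform, had 174 counts in the control and 94 in the knockdown, with a log2 ratio of -0.99, and these counts are uncertain for the sequence it shares with Scd1.

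**Figure D2:**
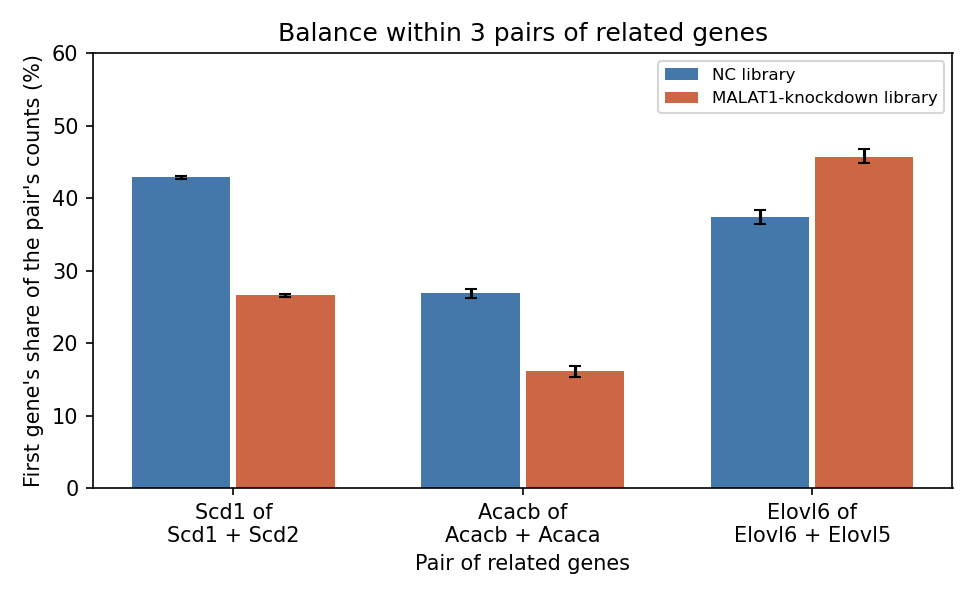
Share of the first-named gene in the counts of each pair of related genes, in percent, in the control and the MALAT1-knockdown library (1 library per bar, error bars are 95% Clopper-Pearson intervals for counting error). Scd1 and Acacb took a smaller share in the knockdown, from 42.9% to 26.6% and from 26.9% to 16.1%, and Elovl6 a larger one, from 37.4% to 45.7%.

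Mlxipl encodes ChREBP, the glucose-responsive activator of lipogenic genes. It was barely detected, with 11 counts in NC cells and 1 in knockdown cells. The knockdown level was 8.44% of the control, with a 95% interval from 0.196% to 58.1%, and its fitted log2 ratio of -3.03 depends on the prior count. Its level of 0.191 CPM in the control stood against a floor of 0.0520 CPM for a count of 0. Mlxip, which encodes its paralog MondoA, had 6135 and 6535 counts, and Mlx, the partner of both, 3581 and 3369 counts.

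**Figure D3:**
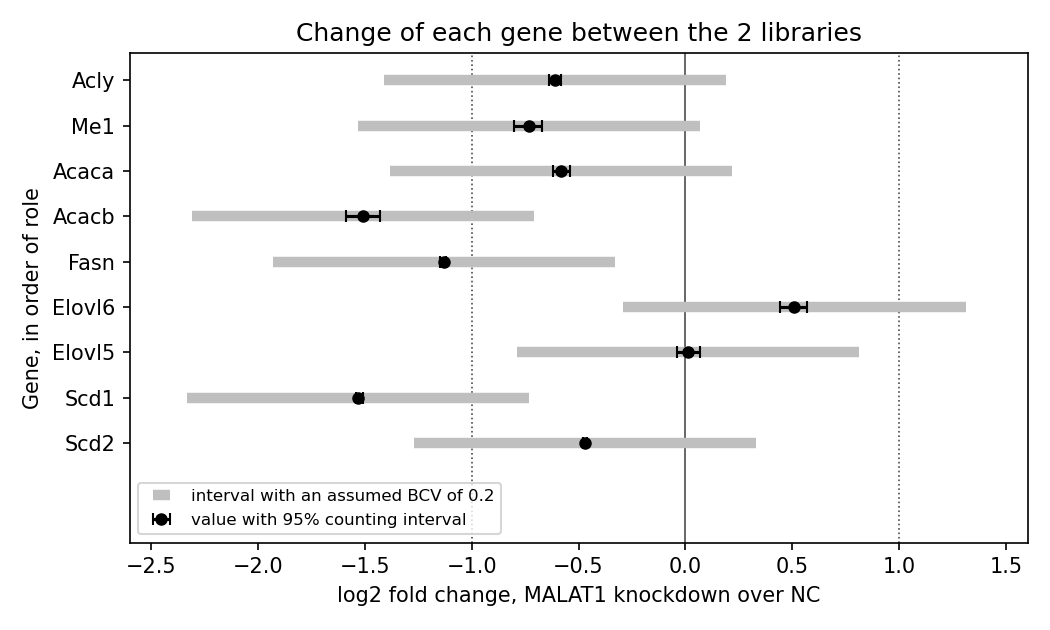
Log2 fold change of 9 genes (knockdown over control), with 95% counting intervals in black and, in grey, intervals for an assumed biological coefficient of variation (BCV) of 0.2 between cultures. Dotted lines mark 2-fold. Scd1, Acacb and Fasn lie past 2-fold and only their grey bars stay below 0. Mlxipl, with 12 counts, is left out.

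Counting intervals reached at most 0.08 to either side for the 9 well-counted members, and that of Elovl5 alone included 0. The spread between cultures is unknown. If cultures varied with a BCV of 0.2, an assumption added after the data were seen, the interval of each of these 9 would widen to 0.80 on either side, and those of Scd1, Acacb and Fasn alone would stay below 0. The next counts likewise rest on an assumed spread. With edgeR's exact test at a preset BCV of 0.1, 3 members were past 2-fold at an adjusted p under 0.05 (Scd1, Acacb and Fasn), against 2.68% of all genes in that direction. At a preset of 0.2 there were 2 (Scd1 and Acacb), against 0.547%. At 0.4 there were 0, as for all genes (0.0%). The 95% counting interval lay wholly past 2-fold for 3 members, against 1.67% of all genes tested.

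**Figure D4:**
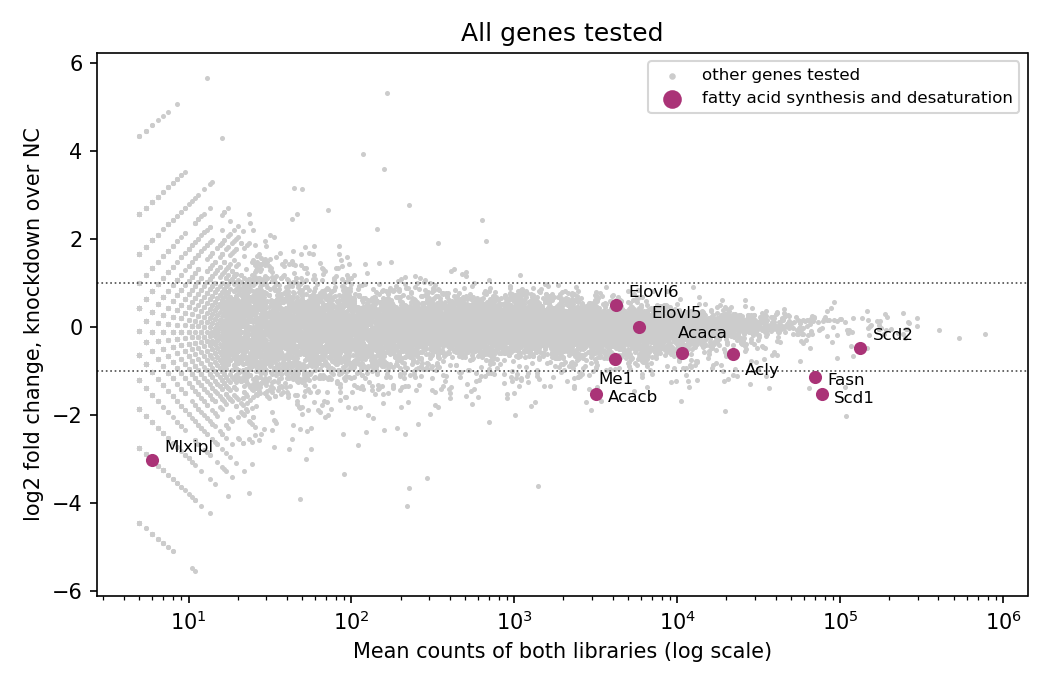
Log2 fold change of every gene tested against its mean count in both libraries (log axis), with the 10 genes in colour and 2-fold as dotted lines. The spread of all genes narrows as counts rise, and Scd1, Fasn and Acacb lie at its lower edge while Mlxipl lies among genes with few counts.

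The rest of the pathway was described with 7 lists written from general knowledge. Over these lists 5 of 70 genes tested passed 2-fold downward and 1 upward, against 6.02% and 3.91% of all genes tested, so the downward share was near that of all genes. The median was -0.22. Those that passed downward were Thrsp, Nr1h3, Insig1, Slc25a1 and Elovl3. Fads6 passed upward, from 7 to 20 counts. Elovl3, with 37 and 6 counts, and Fads6 are named because of their values. With a mean of at least 100 counts, 3 of 65 passed downward and 0 upward. The share of all genes at that count was not computed. At a mean of at least 1000 counts it was 0.739% downward and 0.0121% upward.

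The 10 other genes that provide acetyl-CoA were all below 0 on the log2 ratio, with a median of -0.59, and 1 passed 2-fold. Among all 17356 genes tested, 8744 were below 0 and 6.02% passed 2-fold downward. Pcx, pyruvate carboxylase, which refills the citrate pool, had 69592 counts in NC cells and 44097 in knockdown cells, with a log2 ratio of -0.76. Of the pyruvate dehydrogenase genes, Dlat had -0.71, Pdhb -0.62 and Dld -0.62, whereas Pdha1 had -0.10 on 25355 and 25497 counts. The gene past 2-fold was Slc25a1, the mitochondrial citrate carrier, with 112 and 51 counts and a log2 ratio of -1.23, with a 95% interval from -1.75 to -0.75.

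Genes of NADPH supply other than Me1 stayed near the control. None of 8 passed 2-fold, in either direction, and their median was -0.14. G6pdx, the entry enzyme of the pentose phosphate pathway, had 16075 counts in the control and 15569 in the knockdown, with a log2 ratio of -0.15. Pgd, of the same pathway, had -0.20, and Idh1, cytosolic isocitrate dehydrogenase, had -0.29. Nnt, the mitochondrial transhydrogenase, had 0.22. Me1, at -0.73, lay below all 8.

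The remaining elongation genes had a median of -0.21 over 10 tested. Hacd2, a dehydratase of the elongation cycle, stood lowest among those with a mean of at least 100 counts, with 12121 counts in NC cells and 6822 in knockdown cells and a log2 ratio of -0.94. Elovl1, an elongase of very long chains, had 0.03, Hsd17b12, a reductase of the cycle, -0.30, and Elovl7 0.44 on 86 and 126 counts. The other desaturases and their electron carriers also had a median of -0.21, over 9 tested. Fads1 and Fads2, the desaturases of polyunsaturated chains, had values of -0.29 and -0.41, and Cyb5b, a cytochrome b5, had -0.31.

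Thrsp, the lipogenic nuclear protein Spot 14, fell from 1121 counts to 270, with a log2 ratio of -2.16 (95% interval -2.36 to -1.97). Nr1h3, which encodes LXRα, fell from 1912 to 905 counts, with a log2 ratio of -1.19. Insig1, the SREBP-retaining protein and itself an SREBP target, fell from 7985 to 4091 counts, with a log2 ratio of -1.07. Srebf1, the gene of SREBP-1, had 11183 and 8662 counts and a log2 ratio of -0.48. The median of the 15 regulators was -0.15, and 3 passed 2-fold downward and 0 upward. Among all genes tested 6.02% and 3.91% did so, and among the well-counted ones 0.739% and 0.0121%. Thrsp, with a mean of 695.5 counts, is not among the well-counted genes.

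Genes that control acetyl-CoA carboxylase had a median of -0.20 over 10, and 0 passed 2-fold in either direction. Prkaa1, a catalytic subunit of AMPK, had 0.06, whereas the regulatory subunits Prkag2 and Prkab2 had -0.68 and -0.55 and Hlcs, which attaches biotin to the carboxylases, had -0.56. Fatty acid synthesis inside the mitochondrion, a separate pathway that feeds lipoate production, had a median of -0.37 over 8 genes tested, with 0 past 2-fold. Acsf3, which makes mitochondrial malonyl-CoA, had -0.22. Cbr4, Ndufab1 and Mcat had values of -0.54, -0.53 and -0.42.

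**Figure D5:**
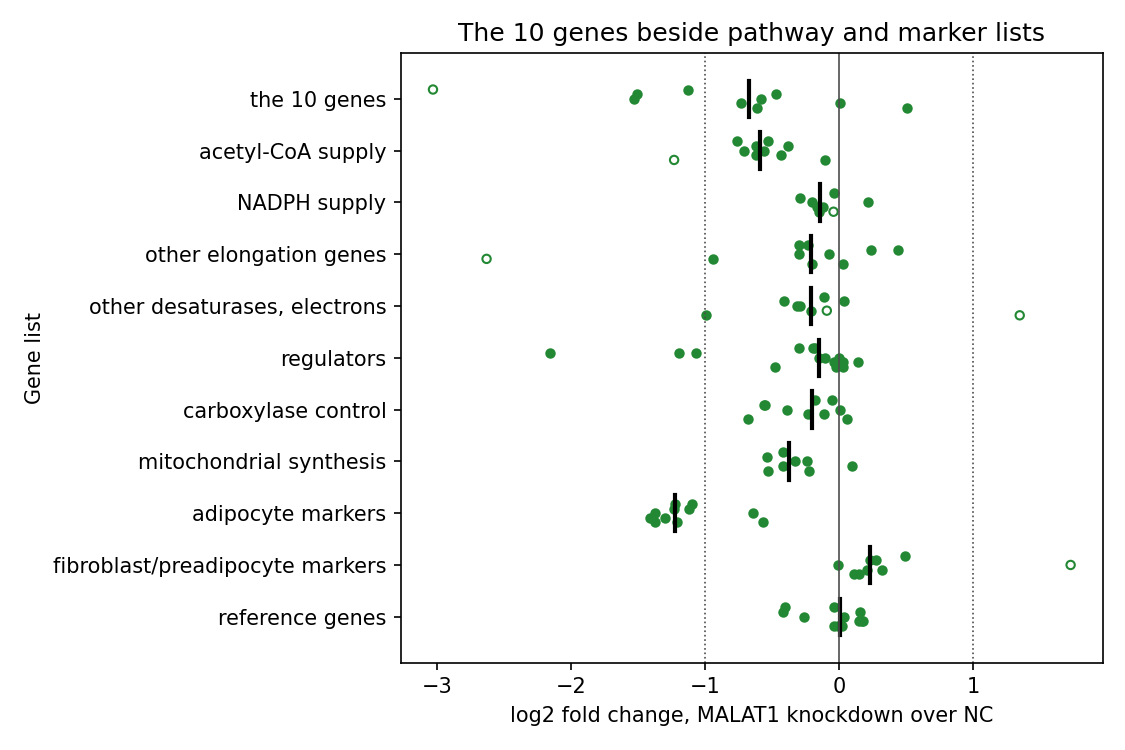
Log2 fold change (knockdown over control) of every gene tested in the 10 genes, the 7 pathway lists, the adipocyte and fibroblast or preadipocyte markers and the reference genes, with the median as a bar and genes under a mean of 100 counts as open circles. The medians run from -1.22 for adipocyte markers and -0.67 for the 10 genes to 0.01 for reference genes and 0.23 for fibroblast or preadipocyte markers.

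Markers of mature adipocytes were set beside these genes, and a link between them was not tested. All 11 adipocyte markers tested of 12 were lower in knockdown cells. Of these, 9 passed 2-fold downward, against 6.02% of all genes tested and 0.739% of the well-counted ones. The median of the 11 was -1.22, and the lowest and highest values were -1.41 and -0.57. Fabp4, Lpl and Pnpla2, the markers with the most counts, had log2 ratios of -1.37, -1.37 and -1.10, and Pparg had -0.57. Lep, the gene of leptin, had 1 count in the control and 0 in the knockdown. Scd1 and Acacb lay below the marker median, Fasn just above it, and Acly, Me1, Acaca, Scd2, Elovl5 and Elovl6 farther above it. Of 9 fibroblast and preadipocyte markers tested, 8 were above 0, with a median of 0.23 and a summed level of 14587 CPM in the control and 16333 CPM in the knockdown. Col1a2, Vim and Col3a1 had values of 0.21, 0.23 and -0.01. Dlk1 was at 0 counts in both libraries.

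Markers of muscle, macrophages and brown adipocytes had low summed levels, and those of osteoblasts and chondrocytes higher ones. Osteoblast and chondrocyte markers summed to 154 CPM in NC cells and 212 CPM in knockdown cells. Most of this was Sox9 (6570 and 10050 counts), with Runx2 (1909 and 2354) and Col2a1 (378 and 692) after it. The 5 tested of 9 in this list were all above 0, with a median of 0.51. The counting intervals of Ibsp (6 and 16 counts, -0.12 to 2.95) and Alpl (48 and 59 counts, -0.38 to 0.77) included 0. The others had too few counts to be tested. Of these, Sp7 (2 and 1) and Bglap (3 and 0) were lower in the knockdown and Col10a1 (2 and 4) higher. Acan was at 0 in both libraries. Muscle markers summed to 7.76 and 5.05 CPM, nearly all from Des (448 and 314 counts), with Ckm (1 and 4) and Myh3 (2 and 0) far behind and Myod1 and Myog at 0 in both. Macrophage markers summed to 9.43 and 11.2 CPM, led by Cd14, Cd68 and Lyz2, and Ptprc and Adgre1 were at 0 in both. Brown adipocyte markers summed to 8.92 and 6.89 CPM, led by Dio2 (299 and 241 counts), Ppargc1a (107 and 158) and Cox8b (56 and 13), and Ucp1 had 1 count in each library. Of the 5 brown adipocyte markers tested, 2 passed 2-fold downward, against 6.02% of all genes tested. They were Cox8b with a log2 ratio of -2.17 and Cidea, named for its value, with 40 and 4 counts and -3.27. Ppargc1a had 0.45. The 12 reference genes had a median of 0.01 and 0 past 2-fold, and Rpl23 had a log2 ratio of 0.02.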

How the data were processed

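Total RNA of 1 control and 1 MALAT1-knockdown culture was rRNA-depleted and made into directional libraries. The authors deposited raw counts of reads per gene symbol, and the submitters' notes name HISAT2 and GRCm38. The counting tool, annotation, use of strand and handling of multiply mapped or duplicate reads are not given in the sources used here. TMM factors came from edgeR 4.0.16 (R 4.3.3) on 17356 genes with at least 10 summed counts. Without replicates neither a quasi-likelihood fit in edgeR nor a DESeq2 test could be made. Intervals are 95% Clopper-Pearson limits, computed in R for log2 fold changes and with scipy 1.17.1 (Python 3.11.15) for shares of counts. The interval of a difference between 2 genes used the normal approximation of the log odds ratio. The floor for a count of 0 was 3 counts, 0.0520 CPM in the control and 0.0483 CPM in the knockdown. Repeated reads of a molecule would make intervals too narrow. The fold change and interval functions were tested on simulated data.

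Genes named were the 10 members, Malat1, Rpl23, Pparg, Srebf1, Insig1 and Thrsp, the first gene of each of 7 pathway lists with up to 3 further genes of largest change (mean of at least 100 counts), and the 3 most counted of each marker list. Values of other list genes that the text gives, such as Mlx and Mlxip, were chosen after they were seen. Members and lists were chosen with earlier results of these data known. Transcript lengths, positions and shared stretches came from GENCODE M21. Alternatives were library totals, DESeq2 1.42.0 size factors, upper-quartile factors, other filters, prior counts of 0.125 and 2, other fold lines and edgeR's exact test with preset BCVs. The sums with pseudogenes and the assumed-BCV intervals were added after the data were seen.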

Additional observations from a re-analysis of the deposited data

How the results depend on the processing

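Across library totals, DESeq2's size factors, upper-quartile factors, both filters and both prior counts, 69 recomputed log2 fold changes of the 10 genes gave 0 changes of sign, and those of the 9 genes other than Mlxipl moved by at most 0.03. The scalings shifted the median of all genes by at most 0.02. The count of 4 members past 2-fold downward became 2 with edgeR's exact test at a preset BCV of 0.2 and 0 at 0.4, and the members lost at 0.2 were Fasn and Mlxipl. The median member log2 fold change became -0.61 with at least 10 counts in each library and without Mlxipl, which the former removes. Over the 7 pathway lists the count past 2-fold downward became 12 of 70 at a 1.5-fold line. At that line 11.9% of all genes tested were lower, and 2.84% of the well-counted ones. The count upward over the lists became 0 with at least 10 counts in each library. It was also 0 where the interval had to lie wholly past 2-fold, and both settings remove Fads6. The 3 differences between related genes were the same under both prior counts. Levels per length depended on the transcript length chosen. No paired analysis was possible because each group has 1 library. Depth limits Mlxipl, whose 12 counts leave an interval from 0.196% to 58.1% of the control.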

Other observations

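Slc25a1, the citrate carrier gene, had 112 counts in the control and 51 in the knockdown. Among its neighbours on chromosome 16, Dgcr2 had 53 and 395 counts, the opposite direction, Dgcr6 had 12 and 20, and Prodh had 10 and 6. These neighbours were looked at after the value of Slc25a1 was seen.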
